A study of Bos taurus with 2 samples.

Results

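The genes described here encode the catalytic and regulatory subunits of the PPP family of serine/threonine protein phosphatases, measured in bovine testis. They were chosen by name alone, as every non-control probe of the array whose gene name is PPP followed by a digit. This gave 135 probes on 138 spots for 66 genes, out of 51282 probes on 61657 spots for 32429 gene names. Total testis RNA from the crossbred bulls (Holstein Friesian crossbreds of mixed exotic inheritance) was compared with that from Zebu bulls of the Tharparkar breed. All bulls were aged 24 months, and the tissue came from 1 testis of each, removed by unilateral castration. Their sexual maturity is not stated. RNA of 3 bulls was pooled within each group before labelling, and each pool was hybridized with Cy3 to 1 array. The spread between bulls was therefore not measured, no difference below has a replicate check or a p-value, and having 2 arrays in all limits the precision.

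A PPP phosphatase removes phosphate from serine and threonine residues and works as a complex, in which a small set of catalytic subunits is steered by a much larger set of regulatory subunits. PP1 is bound by inhibitors and by targeting subunits that bring it to glycogen, to myosin or to the nucleus. PP2A joins a catalytic subunit, a scaffold and an exchangeable B subunit, and calcineurin joins a catalytic A subunit with a calcium-binding B subunit. In the male germ line PP1 is represented by a splice form of PPP1CC that is enriched in testis, and calcineurin by PPP3CC with PPP3R2, and these enzymes act on sperm motility and on shaping of the sperm head.

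Levels below are log2 signals relative to the 75th percentile of the same array, and a difference is the crossbred level minus the Zebu level, so a positive difference means a higher signal in the crossbred pool. A gene was read from its brightest probe, and was called higher or lower once the log2 difference reached 1.5, a 2.83-fold change, with the brighter array standing well above background. Replicate spots of a probe gave differences with a pooled SD of 0.33 on the log2 scale over 5960 probes. Spots in dark or bright patches of the arrays were kept in it, and the median SD of a probe was 0.10. The pooled value is the spot SD used below, so it is wider than the scatter of a typical probe. It covers spotting and scanning only. In whole testis, fewer cells of a type and less RNA per cell cannot be told apart, and the markers of spermatids differed between the pools. All 16 detected spermatid markers of 16 listed were above 0, with a median difference of 1.93. Of these 13 were past 1.5, where 7.12% of all detected gene names were higher. Their summed level was 9.73 on the crossbred and 8.49 on the Zebu array. The marker lists were chosen with earlier results of these data known. Many of the listed spermatid genes are among those the paper reported as upregulated on these arrays, so their count is no independent evidence. The 8 Sertoli cell and 7 Leydig cell markers were all below 0, with medians of -0.99 and -0.57. Of all 24751 detected gene names 13080 were below 0. The paper reported CYP17A1, HSD3B1 and DHH from these lists as downregulated on these arrays, so these counts are no independent evidence either. No marker list beside the spermatids, Sertoli cells, Leydig cells, spermatogonia (-0.66) and peritubular cells (-0.77) had a median past 0.5 in size. All 9 detected spermatocyte markers were above 0, with a median of 0.41. The part of these markers in the PPP differences was not tested.

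The PPP genes as a whole did not stand apart from the other genes of the array. Of the 66 genes, 61 were detected, meaning that 1 array or both showed them well above background, and 60 of these were so on both. The 5 genes detected on neither array were PPP1R1C, PPP1R26, PPP1R27, PPP1R3A (the glycogen-targeting subunit of muscle) and PPP2R2C (a B subunit of brain). Among the 61 detected genes 31 were above 0 and 30 below, and their median difference was 0.03, against -0.05 over 24751 detected gene names. The count past 1.5 was 5, or 8.20%, where 10.0% of all detected gene names were past it. The 3 higher genes were PPP1R39, PPP1R32 and PPP1R17, against a background of 7.12%, and the 2 lower genes were PPP2R5B and PPP6R3, against 2.92%. PPP1R17 was detected only on the array where it is high, and its difference at the bound was under 1.5. Among the 60 genes measured on both arrays 4 (6.67%) were past 1.5, without PPP1R17, where 8.06% of such gene names were. A difference under the replicate-spot SD was seen for 22 of the 61 genes, or 36.1%, and for 36.1% of all detected gene names. Counted by probe, 5 of 123 detected PPP probes were higher (background 6.14%) and 3 lower (background 2.99%), 8 in all where 9.13% of all detected probes were past 1.5.

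**Figure D1:**
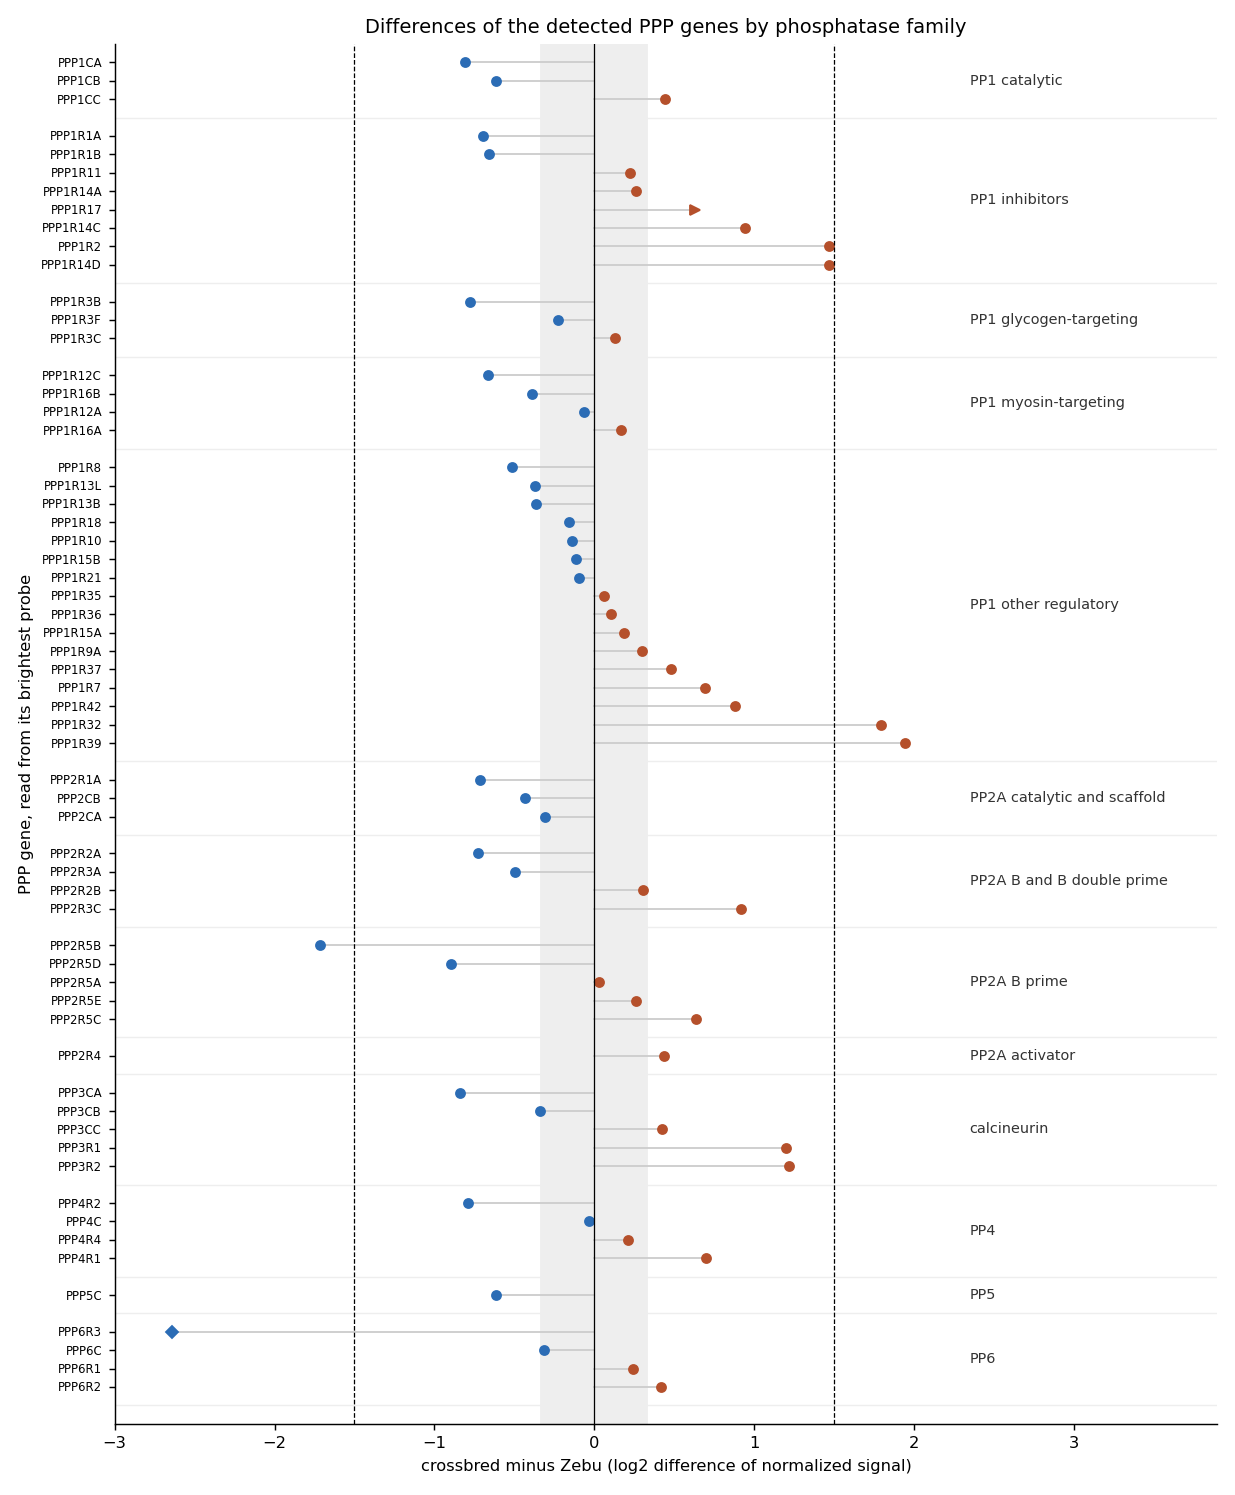
Difference of each of the 61 detected PPP genes (crossbred minus Zebu, log2), read from the brightest probe and ordered within phosphatase family; the grey band is the replicate-spot SD (0.33), dashed lines mark 1.5 on either side, the arrowhead is a lower bound (PPP1R17) and the diamond a probe with a spot in a dark patch of the crossbred array (PPP6R3). The genes lie on both sides of 0 in most families, and all 11 catalytic genes lie inside the dashed lines.

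The catalytic subunits were all detected on both arrays and none was past 1.5. Of the 11 catalytic genes 9 were below 0 and 2 above, with a median of -0.34 and a range from -0.84 to 0.44. Over all 24751 detected gene names 13080 were below 0. The 2 above 0 were PPP1CC and PPP3CC, which in each enzyme is the isoform known for its place in the male germ line. Both also had probes that differed by less than the spot SD.

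Isoforms of 1 enzyme are closely related in their coding sequence, so it matters which transcript a probe can read. The following probes are shown because PPP1CA and PPP1CC differed in opposite directions. They cover the same part of both messages, near the end of the catalytic domain. Capitals mark the 29 bases that are identical over 52 aligned bases without gaps. The second pair are the remaining probes of PPP1CA, which are not independent readings, since the capitals mark 18 bases that both contain.
PPP1CA, mRNA position 912: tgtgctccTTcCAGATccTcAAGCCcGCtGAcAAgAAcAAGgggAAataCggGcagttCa
PPP1CC, mRNA position 1095: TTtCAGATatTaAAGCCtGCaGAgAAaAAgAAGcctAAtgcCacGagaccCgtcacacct
PPP1CA, mRNA position 415: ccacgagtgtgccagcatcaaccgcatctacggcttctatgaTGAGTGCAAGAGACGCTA
PPP1CA, mRNA position 457: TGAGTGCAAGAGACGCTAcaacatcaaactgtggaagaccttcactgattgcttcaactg

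PPP1CA, the alpha catalytic subunit of PP1, had a level of -0.01 on the crossbred and 0.80 on the Zebu array with the probe at position 912, a difference of -0.81. Its other probes, shown above, gave -0.70 each. PPP1CB, the beta subunit and the partner of the myosin-targeting subunits, had 3.40 against 4.02, a difference of -0.62, with -0.67 and -0.55 from its other probes. All 6 probes of these genes were thus lower on the crossbred array, by more than the spot SD. PPP1CC, the gamma subunit, had signals of 25459 on the crossbred and 19670 on the Zebu array with its brightest probe, differing by 0.44. The junction-spanning probe shown above gave 4.21 against 3.64, a difference of 0.58, and the remaining probes gave 0.29 and 0.06. All 4 PPP1CC probes were above 0, though 2 of them by less than the spot SD. The annotation of the array does not say which splice form of PPP1CC a probe reads.

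The PP2A catalytic genes were lower on the crossbred array at every probe, by small amounts. PPP2CA, the alpha catalytic subunit, had 1.99 on the crossbred and 2.30 on the Zebu array, differing by -0.31, and -0.64 at its second probe, which shares 13 bases with the first. PPP2CB, the beta catalytic subunit, had 3.06 against 3.50, a difference of -0.43. Its other probes gave -0.51 and -0.32, and the first of these shares 52 bases with the brightest, so the pair is nearly a repeat of the same measurement. PPP4C, the catalytic subunit of PP4, had 3.47 against 3.51 and differed by -0.03, with 0.17 at its second probe, both under the spot SD. PPP5C, the phosphatase that carries its own tetratricopeptide repeats and binds Hsp90, had 0.40 against 1.01, a difference of -0.61, with -0.83 and -0.40 from its other probes. PPP6C, the catalytic subunit of PP6, was read by a single probe at 1.19 against 1.51.

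Calcineurin genes ran from -0.84 to 1.22, and none was past 1.5. PPP3CA, the widely expressed A alpha subunit, had 0.33 on the crossbred and 1.17 on the Zebu array, differing by -0.84, and its other probes gave -1.06 and -0.73. PPP3CB, the A beta subunit, had -1.07 against -0.73, a difference of -0.34, with -0.47 from its second probe. A dim further probe cleared the background on the Zebu array alone and gave a bound of -0.16, at least 1.12-fold lower in the crossbred pool. PPP3CC, the A gamma subunit of testis, had 1.14 against 0.72, a difference of 0.42, while its second, dim probe differed by 0.02.

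The brightest probes of both calcineurin B genes had differences above 0 and under 1.5, and the probes of PPP3R1 had opposite signs. Their brightest probes are shown because the encoded proteins are close relatives and the probes lie over the same stretch, at the last calcium-binding loop. Capitals mark the 27 bases that are identical over the 37 aligned bases where the probes overlap without gaps.
PPP3R1, mRNA position 469: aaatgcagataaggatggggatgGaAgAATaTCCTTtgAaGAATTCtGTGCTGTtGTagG
PPP3R2, mRNA position 467: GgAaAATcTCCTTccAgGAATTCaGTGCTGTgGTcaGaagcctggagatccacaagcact

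PPP3R2, the B subunit of testis, had 2.52 on the crossbred and 1.30 on the Zebu array, differing by 1.22. It was read by this probe alone. PPP3R1, the B subunit of most tissues, had -0.70 against -1.90 with the probe shown, a difference of 1.20. Its second probe, designed on an expressed sequence tag, had -2.71 against -2.23, a difference of -0.48. The direction of PPP3R1 therefore rests on which probe is read. Neither gene was past 1.5, and both were past a log2 difference of 1, as were 9 of the 61 PPP genes (14.8%), where 21.7% of all detected gene names were past 1.

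**Figure D2:**
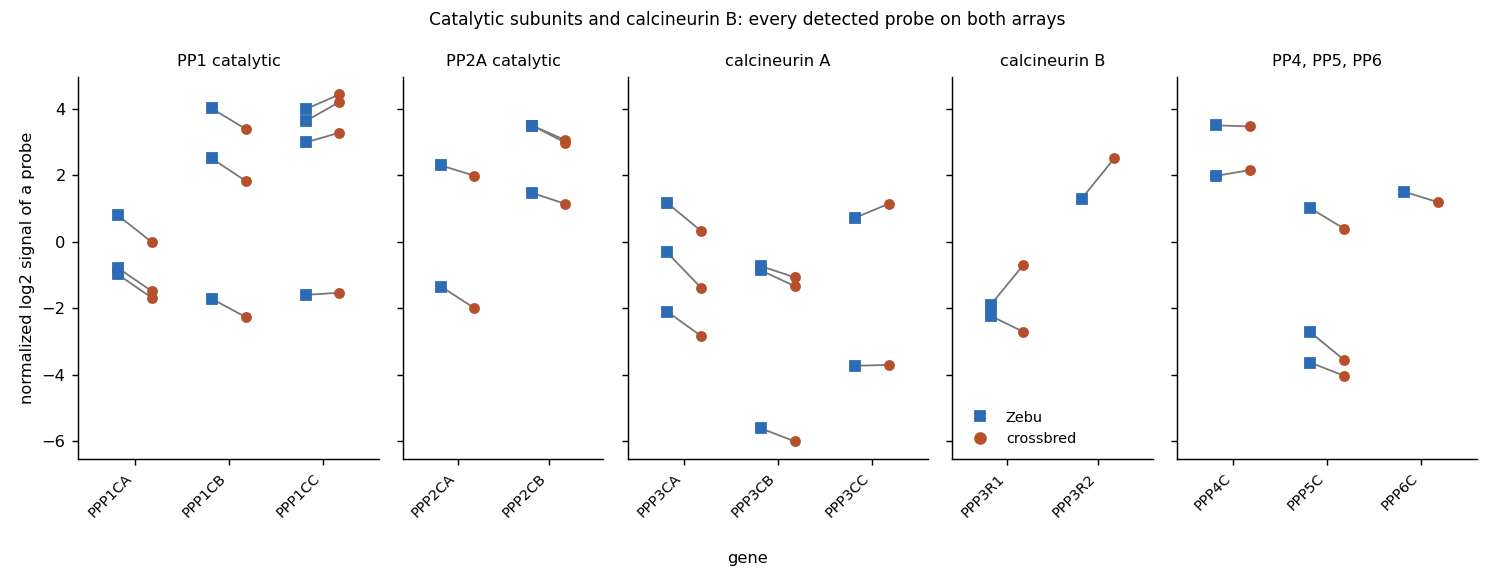
Level of every detected probe of the catalytic genes and of the calcineurin B genes on the Zebu array (squares) and the crossbred array (circles), in log2 signal relative to the 75th percentile of the array, with a line joining the readings of 1 probe. The lines of PPP1CA, PPP1CB, PPP2CA, PPP2CB, PPP3CA, PPP3CB and PPP5C all fall towards the crossbred array, those of PPP1CC and PPP3R2 rise, and the pair of PPP3R1 lines cross directions; heights of different probes are not comparable.

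Among the 35 PP1 regulatory genes 31 were detected, 17 above 0 and 14 below, with a median of 0.11. The 3 genes past 1.5 (9.68%) were all higher. Over all detected gene names 10.0% were past 1.5 in either direction and 7.12% were higher. The inhibitors were 9 genes, of which 8 were detected, 6 above 0 and 2 below, with a median of 0.45. Of these 1 gene (12.5%) was past 1.5, and the group is too small to set against those shares. PPP1R2, inhibitor-2, a heat-stable protein that holds PP1 inactive and is found in sperm, had the joint highest difference of the inhibitors measured on both arrays. Its signal was 37913 on the crossbred and 14364 on the Zebu array, or 5.01 against 3.54, a difference of 1.47. PPP1R14D, a phosphorylation-dependent inhibitor of the same group as CPI-17, had -3.09 against -4.56, also a difference of 1.47, at a much dimmer spot. Both lay just under 1.5. PPP1R17, the inhibitor known as G-substrate of Purkinje cells, cleared the background on the crossbred array alone. Its signals were 29.7 and 4.01, a measured difference of 2.95, but the dim side is only a bound, so the change was at least 1.55-fold (0.63 on the log2 scale).

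PPP1R11, inhibitor-3, had -1.84 on the crossbred and -2.06 on the Zebu array, and its probes gave 0.22 and 0.26, both under the spot SD. PPP1R7, the leucine-rich repeat subunit also known as sds22 that binds PP1 in sperm, had 1.57 against 0.88, a difference of 0.69 from its only probe. The 2 inhibitor genes below 0 were PPP1R1A, inhibitor-1, at -0.69, and PPP1R1B, known as DARPP-32 and as a dopamine-regulated inhibitor, at -0.66. The remaining inhibitors above 0 were PPP1R14C at 0.94 and PPP1R14A, or CPI-17, at 0.26. None of the sperm partners PPP1R2, PPP1R7 and PPP1R11 was past 1.5.

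PPP1R32 and PPP1R39 were the members with more than 1 probe past 1.5 that was well above background on both arrays. A probe of each is shown, chosen because it crosses an exon junction and so reads spliced message. All bases are in lower case.
PPP1R32, mRNA position 768: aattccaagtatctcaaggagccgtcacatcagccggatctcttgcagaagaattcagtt
PPP1R39, mRNA position 1414: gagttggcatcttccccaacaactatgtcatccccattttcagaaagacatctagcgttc

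PPP1R32, a PP1-binding protein named for that interaction and found in tissues with motile cilia, had signals of 18928 on the crossbred and 5731 on the Zebu array, or 4.01 against 2.22. The difference was 1.79 (3.46-fold). This probe lies at chr29:41621589-41621648 on the plus strand of build Btau_3.1, at position 1568 of the mRNA. The junction probe above, at chr29:41616549-41617046, had 0.30 against -1.38, a difference of 1.67. Both readings of the gene were thus higher in the crossbred pool by a similar amount.

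PPP1R39 is an older name of SH3RF2, an SH3-domain protein with a RING finger that also binds PP1. It had signals of 25962 on the crossbred and 7084 on the Zebu array, or 4.46 against 2.52. The difference was 1.94 (3.84-fold), the highest of the 60 PPP genes measured on both arrays. That probe lies at position 2270 of the mRNA, chr7:57311392-57311451. The junction probe shown above, at chr7:57298059-57305093, had -1.93 against -3.64, a difference of 1.71. A probe at position 120, near the start of the message at chr7:57246790-57246849, had -3.58 against -3.63, a difference of 0.06. The 2 probes towards the end of the message were past 1.5 and the probe near its start was under the spot SD.

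PPP1R13B, the p53-binding protein ASPP1, was the member whose probes lay farthest apart on both sides of 0, leaving aside PPP6R3 below. Its brightest probe had 0.66 on the crossbred and 1.03 on the Zebu array, differing by -0.37. The other probes gave 1.19 and 0.37, and a difference just under the threshold from levels of -1.12 and -2.62. The remaining PP1 regulatory genes differed little. The 3 detected glycogen-targeting genes ran from -0.78 (PPP1R3B) to 0.13 (PPP1R3C), and the 4 myosin-targeting genes from -0.67 (PPP1R12C, where all 4 probes were below 0) to 0.17 (PPP1R16A). In the group of other PP1 regulators 8 of 16 detected genes were under the spot SD. Highest there after PPP1R39 and PPP1R32 was PPP1R42, a testis leucine-rich repeat protein, with 3.83 against 2.95, a difference of 0.88, and 0.54 at its second probe.

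**Figure D3:**
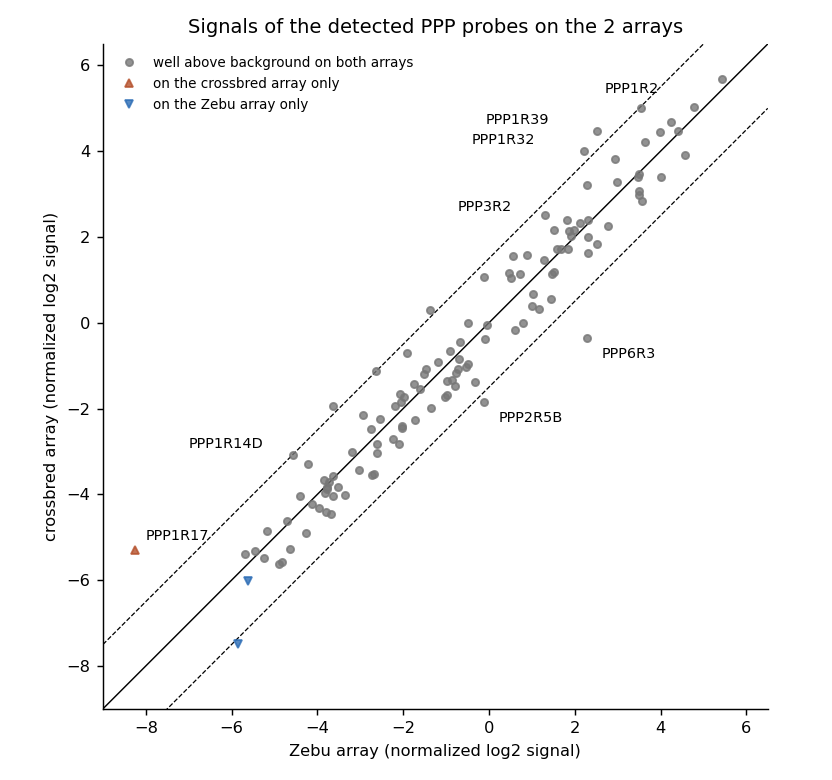
Level of each of the 123 detected PPP probes on the Zebu array (x) and the crossbred array (y), in log2 signal relative to the 75th percentile of the array; the solid line marks equal levels, the dashed lines a difference of 1.5, and the names are those of brightest probes. The 5 probes past the upper line belong to PPP1R39, PPP1R32 and PPP1R17, and the 3 past the lower line to PPP2R5B and PPP6R3.

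Of the 14 PP2A genes 13 were detected, 6 above 0 and 7 below, with a median of -0.31. The B prime subunits, which direct PP2A to substrates and comprise 5 genes here, covered the widest range. PPP2R5B, the B prime beta subunit, had signals of 328 on the crossbred and 1132 on the Zebu array, or -1.84 against -0.12. The difference was -1.72 (3.29-fold lower), at chr29:44974866-44974925. Its second probe cleared the background on the Zebu array alone, with signals of 6.59 and 21.5. The measured difference there was -1.64, but no fold is given, since the bound was 0. PPP2R5D, the B prime delta subunit, had 0.55 against 1.45, a difference of -0.90 from 1 probe. The other B prime genes were at or above 0 by their brightest probes, at 0.03 for PPP2R5A, 0.26 for PPP2R5E and 0.64 for PPP2R5C. The 3 probes of PPP2R5C were all above 0, while the other probes of PPP2R5A gave -0.29 and -0.10.

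The scaffold was below 0 at both probes, and of the 4 detected B and B double prime genes 2 were above 0 and 2 below. The scaffold PPP2R1A was at -0.72 with its brightest probe and -0.05 with the other. Of the B subunits PPP2R2A was at -0.72 and PPP2R2B at 0.31. PPP2R3A, a B double prime subunit, was at -0.50 with all 4 probes below 0. PPP2R3C, which was grouped with it and carries EF-hands, had 3.21 on the crossbred and 2.30 on the Zebu array, differing by 0.92, and 0.59 at its second probe. PPP2R4, now named PTPA, the activator that helps PP2A fold, was at 0.44 and 0.27. In PP4, PPP4R2, the subunit that joins PPP4C in DNA repair, had -0.18 against 0.61, a difference of -0.79 from its only probe, and PPP4R1 was at 0.70.

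PPP6R3, a regulatory subunit of PP6, had the largest difference in size of the 60 genes measured on both arrays, and it rested on 1 spot in a dark patch of the crossbred array. Its brightest probe is printed on 2 spots, and their mean was -0.36 on the crossbred against 2.29 on the Zebu array, differing by -2.64. The spot at row 83 and column 42 had a signal of 184 on the crossbred and 6056 on the Zebu array, differing by -4.97. The patch covers rows 54 to 99 and columns 35 to 46, and 408 detected spots of 544 had a median difference of -1.37. The 13 detected spots among the 18 nearest to it had a median of -4.69. The spot at row 336 and column 150 had signals of 4586 and 5983, a difference of -0.32, and the spots around it had a median of 0.16. With the spots of this patch and of a bright patch elsewhere left out, PPP6R3 was at -0.32, under the spot SD. In that setting 4 PPP genes rather than 5 were past 1.5, or 6.56%, against 9.59% of all detected gene names.

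A further PPP6R3 probe lies away from the patch, and it is shown because it gives a reading of the gene that the patch does not touch. It crosses an exon junction at chr29:47860995-47862396 and had -2.16 on the crossbred and -2.93 on the Zebu array, differing by 0.77.
PPP6R3, mRNA position 2404: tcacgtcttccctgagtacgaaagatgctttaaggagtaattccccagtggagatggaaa

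**Figure D4:**
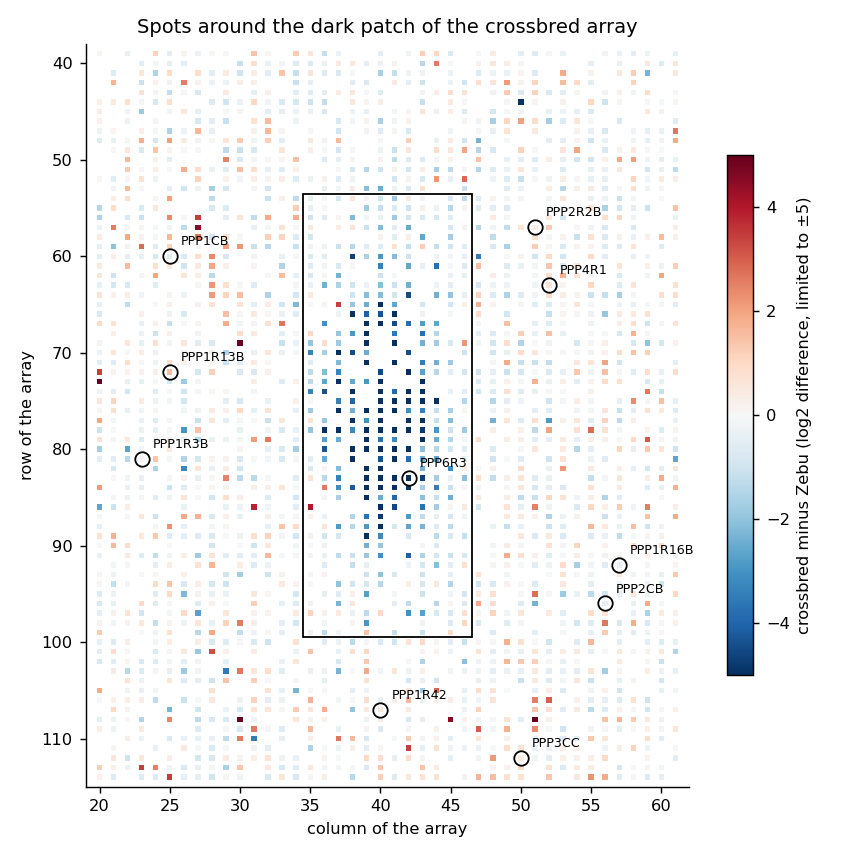
Detected spots of the dark patch and of 15 rows and columns around it, by row (y) and column (x) of the array, coloured by their difference (crossbred minus Zebu, log2, limited to 5 in size), with the dark patch as a box and the spots of PPP probes ringed. The PPP6R3 spot lies among dark blue spots inside the box, and all other ringed spots lie outside it.

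No other PPP spot lay in a marked patch. The spots around the brightest probes of PPP1R32, PPP1R39 and PPP2R5B had median differences of -0.18, -0.11 and -0.41. The remaining PP6 regulators were above 0 at every probe, PPP6R1 at 0.24 and 0.25 and PPP6R2 at 0.42 and 0.31. Only the value of 0.42 was beyond the spot SD.

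Where a gene had several probes, they mostly agreed in direction. Of 40 PPP genes with several probes on both arrays, 31 had all probes on the same side of 0, or 77.5%, against 66.8% of 8185 gene names. The SD between probes of a gene was 0.49 on the log2 scale for the PPP genes and 0.51 for all gene names, above the replicate-spot SD of 0.33. Spots in the marked patches were kept in both values. The PPP value includes PPP6R3, whose probes lay 3.41 apart with a spot in the dark patch, and it was not recomputed without that gene. The median range between probes of a gene was 0.33 for the PPP genes and 0.39 for all gene names. In 5 genes a pair of probes shares bases. The longest stretch identical between probes of different PPP genes was 12 bases, in PPP1R36 and PPP1R10. The GC content of the 120 PPP probes measured on both arrays ran from 18.3% to 78.3%, and its correlation with the difference across these probes was 0.08, given as a description.

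**Figure D5:**
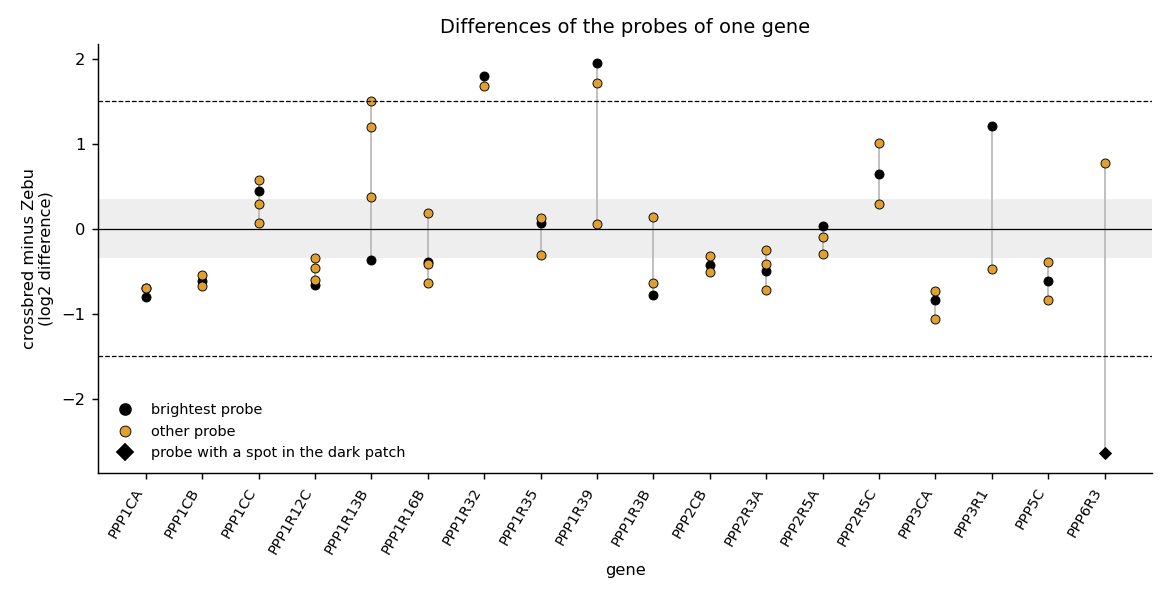
Difference of every probe measured on both arrays (crossbred minus Zebu, log2) for the genes with 3 or more such probes and for PPP1R32, PPP3R1 and PPP6R3; black points are the brightest probe, orange points the others, the diamond has a spot in the dark patch, the grey band is the replicate-spot SD and dashed lines mark 1.5 on either side. The probes of PPP1CA, PPP1CB and PPP3CA lie close together, and those of PPP1R13B, PPP3R1 and PPP6R3 lie on both sides of 0.

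Genes that work with these phosphatases but carry other names were read from lists of known partners. Of 11 detected PP2A partners 1 was past 1.5, namely ARPP19, an inhibitor of PP2A in cell division, with 4.58 on the crossbred and 2.97 on the Zebu array, differing by 1.61. The list's median was 0.05. Of 9 detected calcineurin partners and targets 8 were below 0 and none was past 1.5, with a median of -0.31. RCAN1, RCAN2 and RCAN3, which bind and regulate calcineurin, were at -0.72, -1.23 and -0.96. Of 13 detected PP1 partners without a PPP name 3 were higher, at 1.67 for PHACTR1, which binds PP1 and actin, 1.51 for CSRNP1 and 1.75 for CSRNP2, both nuclear proteins, with a list median of 0.18. Over all 24751 detected gene names 10.0% were past 1.5 in either direction, 7.12% were higher, and 13080 were below 0. Lists this short allow no reading against those shares. PPEF1, a PPP phosphatase with EF-hands, was at 0.81, and PPEF2 was detected on neither array.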

How the data were processed

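Labelled RNA was scanned on Agilent bovine arrays. The deposited intensity values were made by the authors with Agilent Feature Extraction 11.5.1.1 (file headers), which subtracts background and removes spatial trends. The authors also deposited log2 values shifted to the 75th percentile, used here as an alternative. Their medians were -3.00 and -3.01, and they correlated with the values computed here at 0.9994 and 0.9998. The largest gap at a single probe was 5.93 on the crossbred and 10.56 on the Zebu array, on the log2 scale. Here the processed signals were put on the log2 scale, spots of a probe were averaged, and each array was shifted by its 75th percentile of non-control probes (signals of 1175.8 and 1232.7). Control spots and 13 outlier spots, none of a PPP probe, were left out, and there were no saturated spots. Of the non-control spots 72.0% (crossbred) and 74.3% (Zebu) were well above background. A dim side was set to the higher of its own value and the lowest signal among probes well above background (-5.78 and -5.94), and a fold from it is written as "at least". A gene was read from the probe with the highest mean level. Probe positions and coordinates are those of the array annotation (Btau_3.1). Current symbols came from RefSeq (ARS-UCD2.0), with 51 genes matched by accession and 15 by symbol, and 2 have another current symbol.

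There were 2 arrays, 1 per group, so no test was run. The genes named are the catalytic genes, known sperm partners, genes with a probe past 1.5, the 5 largest rises and 5 largest falls, genes with a spot in a marked patch and genes with opposed probes, 1 of them past 1 in size. A few others were named after their values were seen. Members, families, marker lists and partner lists were chosen with earlier results of these data known. Computation used Python 3.11.15, numpy 2.4.6, pandas 2.3.3, and limma 3.58.1 in R 4.3.3 for an alternative background correction (normexp, offset 50), and was tested on simulated data.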

Additional observations from a re-analysis of the deposited data

How the results depend on the processing

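No paired analysis was possible because each group has 1 array, and for the same reason no replicate could be left out. Of 13 alternatives 2 (the probe with the highest signal on either array, and one-sided differences at their bound) were added after seeing the data. Single genes and medians were recomputed under 10 of them, PPP1R17 under 9, and 23 of the 25 named genes kept their direction. PPP1R13B and PPP4C did not. Most of these alternatives read each gene from the same probe, so the count says little about the choice of probe. PPP3R1 and PPP6R3 were counted as keeping their direction, though their other probes had the opposite sign (-0.48 and 0.77). Medians near 0 changed sign. That of all PPP genes was -0.10 with quantile normalization and -0.0014 over probes detected on both arrays, that of the other PP1 regulators -0.03 with quantile normalization, and that of the B prime genes -0.0048 with quantile normalization and -0.12 when the probes of a gene were averaged. The causes were not tested. PPP1R17 was not past 1.5 at its bound and had no value over probes measured on both arrays, which left 4 genes under each. These were 6.56% at the bound, against 8.66% of all gene names. Over probes measured on both arrays they were 6.67%, against 8.06%. With normexp background correction 3 genes (PPP1R32, PPP1R39 and PPP6R3) and 4 probes were past 1.5. The genes were 4.92%, against 4.82% of all gene names. With a threshold of log2 1 there were 9 genes (7 higher, 2 lower; 14.8%, against 21.7% of all gene names) and 16 probes, and with a linear fold of 1.5 there were 27 genes (13 higher, 14 lower; 44.3%, against 43.6%) and 48 probes. Averaging the probes of each gene, only PPP1R32 was past 1.5, 1 gene in all. PPP1R39 was then at 1.24, PPP2R5B at -0.86, PPP3R1 at 0.36, PPP1R13B at 0.67 and PPP6R3 at -0.94. The share over all gene names was not computed for averaged probes, nor shares over all probes for the probe counts in this paragraph. With no filter on dim probes the median of the PP1 inhibitors was 0.94 in place of 0.45. Without the marked patches PPP6R3 was at -0.32. Signals near background limit PPP1R17, PPP1R14D (0.83 with normexp) and the second PPP2R5B probe.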
